A study of Mus musculus with 14 samples.

Results

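Gene expression was compared between crypt cells of the ileum and of the jejunum of the mouse. The labels name no sort marker for these libraries, unlike the others of the study, although the growth protocol attached to all libraries speaks of sorted cells. The rule took the expected counts of the 3 libraries titled as distal crypt (ileum crypt 1, 2 and 3) and the 3 titled as proximal crypt (jejunum crypt 1, 2 and 3), 6 of the 14 libraries of the series, with all genes. The ileum group was taken 5 to 8 cm from the cecum and the jejunum group 5 to 8 cm from the pylorus. Both came from C57Bl6 mice labelled male and 6 to 12 weeks old, with no treatment or engineered allele named for them, and the labels call both groups crypt stem cells. The other 8 libraries, LGR5 cells and CD166 cells of the same regions (2 each), were used for comparison and share no library with the crypt samples. The labels do not say whether libraries came from separate mice, so every p-value here measures the spread between these libraries, which may be technical, and crypt and sorted libraries may share animals. The library labelled ileum crypt 3 had a jejunum-like profile, and each count is given with it (6 libraries) and without it (5 libraries).

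The epithelium of the small intestine renews from stem cells at the crypt base, and its absorptive cells differ along the length of the gut. The proximal part digests and takes up most sugars, peptides and fat, which it packs with apolipoproteins into chylomicrons. The distal ileum reclaims bile acids, which then return to the liver. GATA4 is known to keep the jejunal programme of enterocytes, and Hox genes are expressed in an order that follows position along the gut.

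The promoters of 4 genes that mark these functions are shown because the results turn on them. They are Fabp6 (ENSMUSG00000020405), which encodes the bile acid binding protein of ileal enterocytes, Slc10a2 (ENSMUSG00000023073), the apical bile acid transporter, Rbp2 (ENSMUSG00000032454), the retinol binding protein of enterocytes, and Lct (ENSMUSG00000026354), lactase. Each sequence runs from 250 bases before to 50 bases after the RefSeq start on GRCm38.p6 and is written on the strand of the gene, with motif matches in capitals. The places are chr11:43601513-43601812 (minus strand), chr8:5105238-5105537 (minus), chr9:98490287-98490586 (plus) and chr1:128328269-128328568 (minus).
Fabp6: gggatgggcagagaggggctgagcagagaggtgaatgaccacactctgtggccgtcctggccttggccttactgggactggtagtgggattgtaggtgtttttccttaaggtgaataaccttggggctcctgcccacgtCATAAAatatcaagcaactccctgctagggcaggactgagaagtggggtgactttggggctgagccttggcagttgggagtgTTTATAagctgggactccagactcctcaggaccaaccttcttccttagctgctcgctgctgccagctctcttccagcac
Slc10a2: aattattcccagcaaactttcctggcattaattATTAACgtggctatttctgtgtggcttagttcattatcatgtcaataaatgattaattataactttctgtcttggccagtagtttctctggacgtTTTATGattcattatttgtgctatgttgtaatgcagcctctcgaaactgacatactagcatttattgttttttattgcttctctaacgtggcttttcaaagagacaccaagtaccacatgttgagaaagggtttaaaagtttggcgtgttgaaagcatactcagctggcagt
Rbp2: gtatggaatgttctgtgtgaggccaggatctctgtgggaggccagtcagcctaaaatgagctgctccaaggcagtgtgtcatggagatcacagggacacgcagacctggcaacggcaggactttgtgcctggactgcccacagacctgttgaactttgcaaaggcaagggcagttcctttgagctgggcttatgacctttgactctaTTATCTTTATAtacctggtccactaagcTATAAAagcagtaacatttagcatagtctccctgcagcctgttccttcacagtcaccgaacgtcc
Lct: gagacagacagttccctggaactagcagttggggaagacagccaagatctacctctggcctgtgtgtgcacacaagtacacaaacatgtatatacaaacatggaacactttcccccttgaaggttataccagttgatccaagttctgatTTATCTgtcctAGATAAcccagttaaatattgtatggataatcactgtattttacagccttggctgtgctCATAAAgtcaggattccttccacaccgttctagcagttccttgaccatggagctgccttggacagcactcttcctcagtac

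Both strands were searched for the letters AGATAA, known from sites of GATA factors, TTTATG, from sites of CDX factors, GTTAAT, part of a site of HNF1, and TATAAA, the core of the TATA box. The GATA letters were in the Lct window at -101 and -90 from the start and in the Rbp2 window at -43, where they overlap a TATA match at -38. The Rbp2 window held a further TATA match at -15. CDX letters were at -111 in Fabp6, at -122 in Slc10a2 and at -31 in Lct. Fabp6 also held the TATA letters at -29 and Slc10a2 the HNF1 letters at -217. Matches on the strand of the gene were those at -90 in Lct, -122 in Slc10a2 and -15 in Rbp2. The others, the TATA letters of Fabp6 among them, were on the opposite strand. Of 27025 mouse promoters of that length, 11.4% hold the GATA letters, 12.1% the CDX letters, 7.2% the HNF1 letters and 14.2% the TATA letters, so such matches are common and are given as a description.

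The 6 libraries held 6295828 to 20380369 expected counts, and Lyz1, Eef1a1, Defa24, Fabp2 or Apoa4 took the largest share of a library, between 0.7085% and 1.752%. A count of 0 allows at most 0.16 to 0.494 CPM (counts scaled to a common library size by TMM), which covers counting error only. The cells were more than stem cells: beside the stem cell gene Olfm4 (2409, 3835 and 3711 CPM in ileum crypt 1 to 3, against 3563, 991 and 1874 CPM in jejunum crypt 1 to 3), Lyz1 of Paneth cells, Krt20 of villus cells (506 to 777 CPM in ileum, 817 to 1079 CPM in jejunum) and lymphocyte genes were detected in each. Xist, the transcript of an inactive X chromosome, was high in 2 libraries, ileum crypt 1 with 1760 CPM of its total count and jejunum crypt 2 with 1160 CPM, and stood at 2.50 to 3.03 CPM in the other 4. Those 2 libraries had no count of the Y-linked gene Ddx3y, which the other 4 held at 36.4 to 53.3 CPM, although the labels call every library male. The same pair had the highest lymphocyte genes, with list means of 6.99 log2 CPM in ileum crypt 1 and 8.16 in jejunum crypt 2, against 2.99 to 4.90 in the other 4. Jejunum crypt 2 also had the lowest cell cycle mean (5.18 log2 CPM, against 6.45 to 6.70 in the other 5) and held stomach genes, whose sum was 200 CPM there and 1.11 to 1.71 CPM in the other 5.

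The regional identity of each library was read from genes that did not depend on the crypt data. In the 8 sorted libraries, edgeR's quasi-likelihood test called 480 genes higher (3.47% of 13814 tested) and 478 lower (3.46%) in ileum at an adjusted p under 0.05, 6.93% in all. The mean log2 CPM of the first set minus that of the second was 0.60 and 0.44 in ileum crypt 1 and 2 and -1.86 in ileum crypt 3, against -1.85, -2.36 and -2.95 in jejunum crypt 1, 2 and 3. Ileum crypt 3 therefore stood 18.2% of the way up from the jejunum mean to the mean of ileum crypt 1 and 2, next to jejunum crypt 1 at 18.4%. Those 2 libraries were also the closest of all 15 pairs: 16.5% of 12775 genes differed by more than counting error, for which 5% would be expected without any difference. Every other pair had 48.7% or more.

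**Figure D1:**
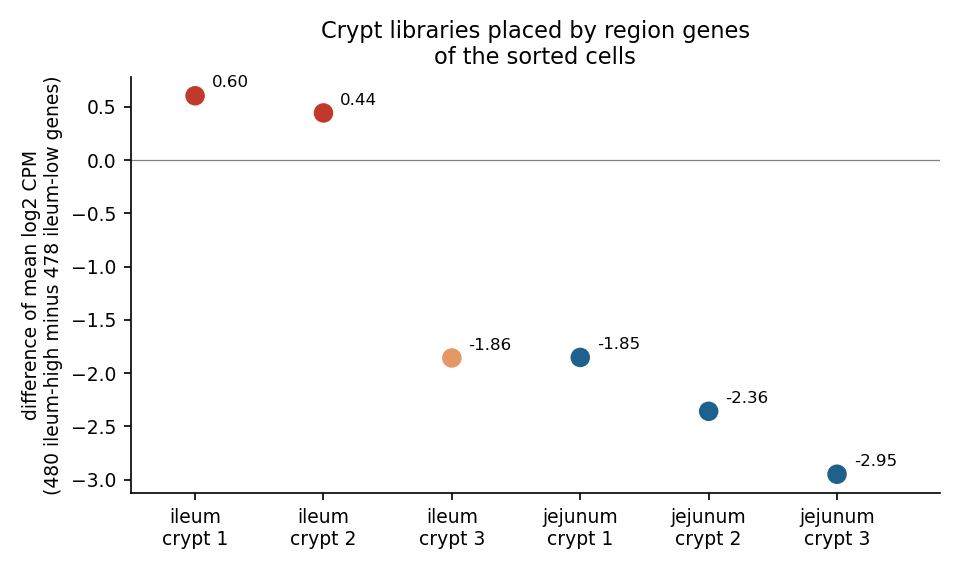
Regional placement of the 6 crypt libraries (x axis), as the mean log2 CPM of 480 genes higher in ileum minus that of 478 genes lower in ileum, both called in the sorted cells (y axis, log2 units). Each point is 1 library; ileum crypt 1 and 2 lie above 0, and ileum crypt 3 lies at -1.86 beside jejunum crypt 1 at -1.85.

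No gene passed the adjusted threshold in the fit of the 6 libraries or in that of the 5. With 6 libraries 12799 genes were tested, the smallest adjusted p was 0.786 by edgeR, and 757 genes had an unadjusted p under 0.05 (328 higher, 2.56%, and 429 lower, 3.35%). Without ileum crypt 3, 13469 genes were tested, the smallest adjusted p was 0.109, and 1313 genes had an unadjusted p under 0.05 (535 higher, 3.97%, and 778 lower, 5.78%). Limma-voom also called 0 genes in both, with smallest adjusted p-values of 0.715 and 0.0601, and DESeq2 called 22 (0.172%; 5 higher, 0.0391%, and 17 lower, 0.133%) and 657 (4.88%; 205 higher, 1.52%, and 452 lower, 3.36%). Other settings of the 5-library fit did make calls. A term for the 2 Xist-high libraries gave 805 calls (5.98% of those tested; 270 higher, 2%, and 535 lower, 3.97%). A spread estimated from all libraries gave 614 (4.17%; 236 higher, 1.6%, and 378 lower, 2.56%). Leaving out jejunum crypt 2 as well gave 172 (1.3%; 50 higher, 0.378%, and 122 lower, 0.922%). The calls of these 3 settings and of DESeq2 shared 137 genes, 36 higher (0.267%) and 101 lower (0.75%). The 4 are the settings with over 100 calls, and the Xist term made the most. They and the meaning of "called" were chosen after the counts were seen. The 4 share libraries, so a call in all 4 is not independent support. Below, "called" means an adjusted p under 0.05 by edgeR with the Xist term in the 5-library fit, and "in all 4" means among the 137. Fold changes and standard errors are those of the 5-library fit without that term, as log2 of ileum over jejunum. That term leaves the 5-library fit few degrees of freedom, and with all 6 libraries it made 0 calls (smallest adjusted p 0.409). A gene that is called here did not pass the test of the design as first set, and the words higher and lower describe levels. Counts of called list members stand beside 2% higher and 3.97% lower over all tested genes. Overlap between groups is judged without ileum crypt 3. In that sense 13.4% of all tested genes lay above jejunum without overlap and 13.4% below. Among the 137, ileum crypt 3 was within or beyond the jejunum range for 22 of the 36 and 76 of the 101. Over the 805 genes called with the Xist term it was within the jejunum range for 441, and for 206 it was nearer to the mean of ileum crypt 1 and 2 than to that of jejunum.

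Genes of bile acid uptake were at their highest in ileum crypt 1 and 2. Fabp6 stood at 2566 and 1928 CPM there and at 25.1 CPM in ileum crypt 3, against 24.5, 1.15 and 1.12 CPM in jejunum crypt 1 to 3. The ranges of the 5 libraries did not overlap, and the log2 fold change was 7.98 ± 1.67 (SE) with 5 libraries and 7.42 with 6. Its adjusted p with the Xist term was 0.0729, so Fabp6 was not called, and jejunum crypt 1 held about the level of ileum crypt 3. Slc10a2 had 36.3 and 17.0 CPM in ileum crypt 1 and 2 and 0.889 CPM in ileum crypt 3, against 0.538, 0.165 and 0.373 CPM in jejunum, and it was called in all 4 (log2 fold change 6.10 ± 0.58, adjusted p = 0.00729). Fgf15, the hormone that reports bile acid uptake to the liver, had 41.6, 14 and 0.445 CPM in ileum crypt 1 to 3, against 0.269, 0 and 0.0533 CPM in jejunum (adjusted p = 0.00729). Nr1h4, the bile acid receptor, was less uneven at 87.3, 81.5 and 41.7 CPM, against 44.2, 26.7 and 36.8 CPM in jejunum (1.22 ± 0.24, adjusted p = 0.0246). Of the 10 tested genes of the bile acid list, 4 were called higher (those named other than Fabp6, and the receptor Fgfr4) and the exporter Abcc2 was called lower. The list's median log2 fold change was 1.05 with 5 libraries and 0.14 with 6, beside -0.0197 and -0.0033 over all tested genes. With 6 libraries Slc10a2 and Fgf15 did not pass the filter on low counts, and over the 8 members tested in both fits the medians were 0.45 and 0.14. The filter could pass Slc10a2 and Fgf15 through ileum crypt 1 and 2 alone, so their direction carries no weight of its own. Of the members, 6 had ileum crypt 1 and 2 above all jejunum libraries and 1 had them below. Over all tested genes 13.4% lay above and 13.4% below (5.33% and 6.46% with 6 libraries).

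The Hox genes, which encode homeodomain factors of position, summed to 72.8 and 72.2 CPM in ileum crypt 1 and 2. In the other 4 libraries they summed to 4.11 to 8.64 CPM. Single members differed from this form, such as Hoxb2, which was highest in jejunum crypt 3 at 1.49 CPM. In the sorted cells 9 Hox genes were called higher in ileum and 2 lower. Hoxb9 had 18.5 and 22.5 CPM in ileum crypt 1 and 2 and 0.222 CPM in ileum crypt 3, against 0.269, 0 and 0.160 CPM in jejunum (6.89 ± 0.69, adjusted p = 0.00521). Hoxb7 had 10.1, 14.5 and 0.111 CPM in ileum, against 0.538, 0.165 and 0.373 CPM in jejunum (4.99 ± 0.53, adjusted p = 0.00729). Of 39 Hox genes in the files 9 passed the filter on low counts, all with ileum above jejunum in the 5 libraries. The filter could pass these genes through ileum crypt 1 and 2 alone, so their direction carries no weight of its own. Of the 9, the 5 genes Hoxb5 to Hoxb9 were called in all 4, and Hoxd4 was called with the Xist term. Hoxd4 had 2.29 and 1.75 CPM in ileum crypt 1 and 2 and no count in the other 4 libraries, which makes it at least 24.2-fold higher against a floor of 3 counts over the jejunum group. The median log2 fold change of the 9 was 4.69, and 4.67 with Hoxd4 at that bound.

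**Figure D2:**
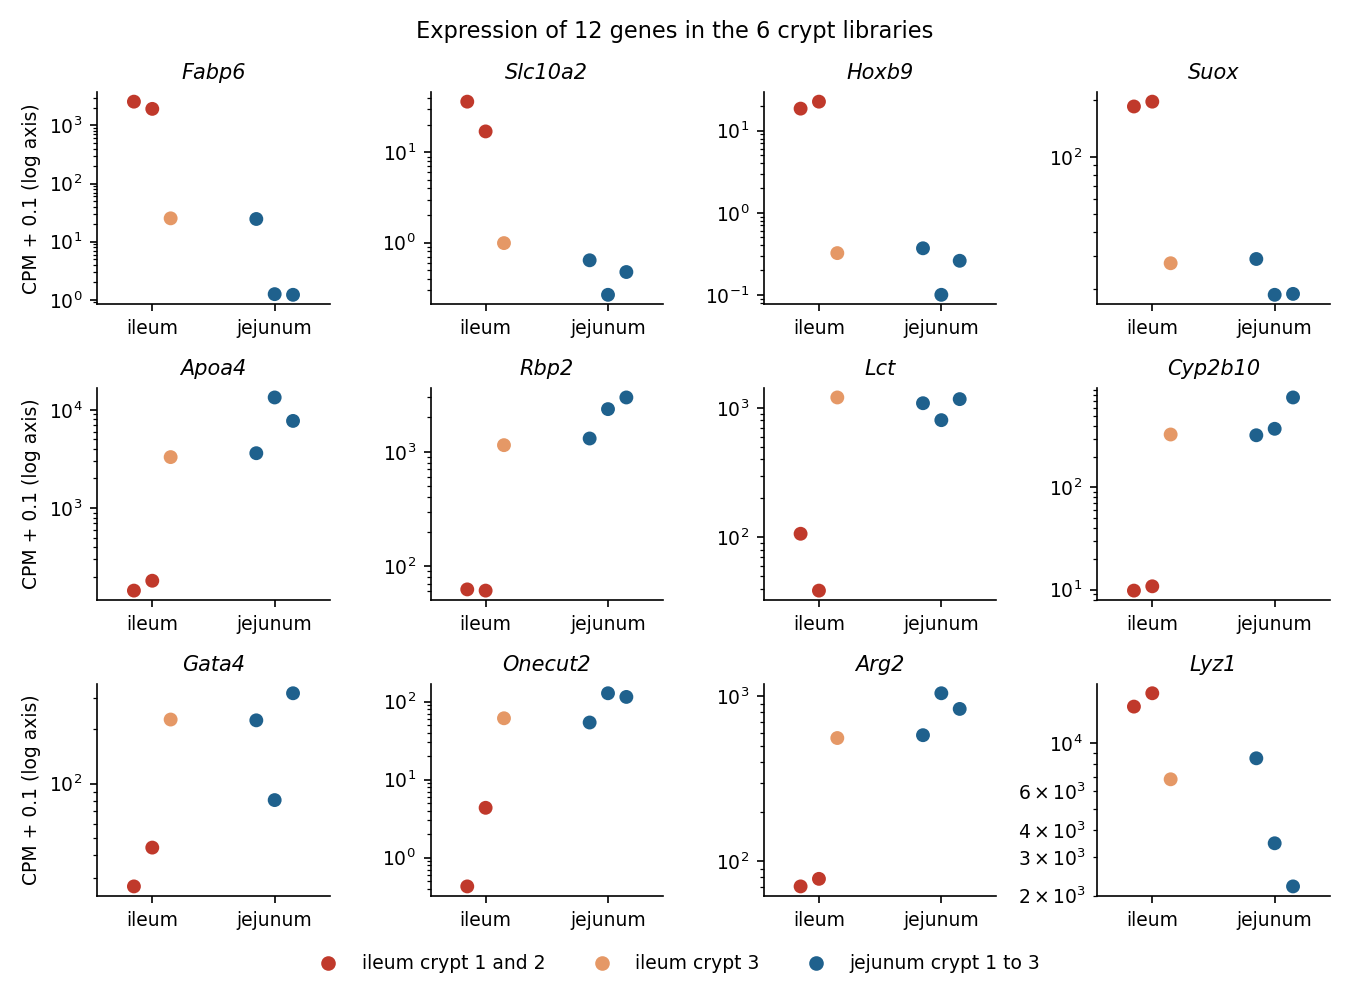
Level of 12 genes in each crypt library, ileum left and jejunum right, as CPM + 0.1 on a log axis; each point is 1 library. Ileum crypt 3 (orange) lies at or near the jejunum levels (blue) in each panel, for example at 25.1 CPM of Fabp6, beside 24.5 CPM in jejunum crypt 1.

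Genes of fat absorption were lower in ileum crypt 1 and 2 from uptake to chylomicron assembly. Markers of villus enterocytes, the cells that absorb fat, moved in part with them. Of 16 tested 5 were called lower and 1 higher, and the median log2 fold change was -0.58. Without overlap, 8 of these markers lay below jejunum and 1 above, where 13.4% of all tested genes lay below and 13.4% above. Their list mean was 8.20, 7.43 and 8.07 log2 CPM in ileum, against 8.12, 8.70 and 8.20 log2 CPM in jejunum. Their summed level was 8920, 7280 and 14000 CPM in ileum crypt 1 to 3, against 13900, 15300 and 16600 CPM in jejunum. The part of these cells in the differences was not tested. Apoa4, an apolipoprotein of chylomicrons, had 144 and 182 CPM in ileum crypt 1 and 2 and 3298 CPM in ileum crypt 3, against 3613, 13340.0 and 7698 CPM in jejunum (-5.70 ± 0.85, adjusted p = 0.0157; -2.82 with 6 libraries). Mttp, which loads lipid onto apolipoprotein B, had 454, 419 and 1960.0 CPM in ileum, against 1845, 1807 and 2452 CPM in jejunum (-2.23 ± 0.32, adjusted p = 0.0203). Cd36, a fatty acid receptor, had 8.38, 3.8 and 70.5 CPM, against 71.0, 154 and 99.0 CPM in jejunum (-4.17 ± 0.60, adjusted p = 0.00521). The 2 groups did not overlap for any of these genes once ileum crypt 3 was set aside. Of the 22 genes of the list 13 were called lower and 0 higher, and 5 of them were called in all 4: these 3 genes, Dgat2 of triglyceride synthesis and the acyl-CoA synthetase gene Acsl5. The list's median log2 fold change was -1.34 with 5 libraries and -0.93 with 6. Fabp1, the liver-type fatty acid binding protein, was uneven within ileum, with 12.3 and 95.8 CPM in ileum crypt 1 and 2 and 1033 CPM in ileum crypt 3, against 1163, 3097 and 2972 CPM in jejunum (-5.52 ± 1.20, adjusted p = 0.0494). Its intestinal relative Fabp2 overlapped between groups, with 2232, 912 and 1912 CPM in ileum, against 2129, 14920.0 and 3157 CPM in jejunum.

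A set of genes for vesicle export from the endoplasmic reticulum was also lower in ileum crypt 1 and 2; this list was chosen after its values were seen. Chylomicrons leave the endoplasmic reticulum in carriers built by the COPII coat. Sec23a, a coat subunit, had 86.8, 94.9 and 223 CPM in ileum, against 212, 189 and 238 CPM in jejunum (-1.24 ± 0.19, adjusted p = 0.0203). Sec16b, of the exit sites, had 48.5, 40.1 and 103 CPM, against 102, 116 and 111 CPM in jejunum (-1.33 ± 0.21, adjusted p = 0.0139). Of 15 COPII genes 4 were called lower and 0 higher, and the median was -0.52. In the sorted cells 0 of the 15 were called and Sec16b differed by 0.01 on the log2 scale (adjusted p = 0.988); the test of that difference between populations gave adjusted p-values of 0.118 for Sec23a and 0.125 for Sec16b. Creb3l2, a transcription factor that induces COPII subunits, had 23.5, 29.4 and 68.6 CPM in ileum, against 64.7, 54.0 and 61.7 CPM in jejunum (-1.20 ± 0.20, adjusted p = 0.02).

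Retinoid genes differed in both directions. Rbp2 had 62.3 and 60.8 CPM in ileum crypt 1 and 2 and 1143 CPM in ileum crypt 3, against 1307, 2363 and 2989 CPM in jejunum (-5.19 ± 0.55, adjusted p = 0.0123; -2.43 with 6 libraries). Rdh7, a retinol dehydrogenase, had 17.5, 23.7 and 148 CPM, against 144, 172 and 210.2 CPM in jejunum (-3.11 ± 0.29, adjusted p = 0.00729). Bcmo1, which cleaves beta-carotene to retinal, had 4.90, 13.6 and 2.78 CPM in ileum, against 1.52, 1.65 and 1.49 CPM in jejunum (2.54 ± 0.54, adjusted p = 0.0293). Rdh1, like Rdh7 a retinol dehydrogenase gene, was also higher (3.24 ± 0.49, adjusted p = 0.0157). Of 11 tested members 2 were called higher and 4 lower, the others being Aldh1a1 and Retsat.

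Brush border sugar digestion was lower in ileum crypt 1 and 2, more for some enzymes than for others. Lct, lactase, had 107 and 38.8 CPM in ileum crypt 1 and 2 and 1203 CPM in ileum crypt 3, against 1086, 804 and 1168 CPM in jejunum (-3.81 ± 0.57, adjusted p = 0.0167; -1.20 with 6 libraries). Treh, trehalase, had 36.7, 30.7 and 193 CPM in ileum, against 194, 330.2 and 387 CPM in jejunum (-3.19 ± 0.40, adjusted p = 0.0138). Sis, sucrase-isomaltase, differed less and was not called (-1.31 ± 0.34, adjusted p = 0.0571) (groups did not overlap). Mgam, maltase-glucoamylase, overlapped between groups at 1168, 1322 and 1354 CPM in ileum, against 1179, 988 and 1308 CPM in jejunum. Among the transporters, the exit route for hexoses Slc2a2 differed most, with 10.4, 17.7 and 144 CPM in ileum, against 131, 292 and 291 CPM in jejunum (-4.11 ± 0.55, adjusted p = 0.0157). The sodium-glucose transporter Slc5a1 had -1.51 ± 0.30 and the fructose transporter Slc2a5 had -2.16 ± 0.48, both called. Of the 14 genes of the list 8 were called lower and 0 higher. Below jejunum without overlap lay 13 of them, as did 13.4% of all tested genes. The median was -2.11 with 5 libraries and -1.19 with 6. The list includes genes of glucose production: Pck1 had 18.5, 16.7 and 134 CPM in ileum, against 142, 136 and 101 CPM in jejunum (-2.86 ± 0.27, adjusted p = 0.00729), and G6pc had -2.85 ± 0.39 (adjusted p = 0.0157). Both were called in all 4, and in the sorted cells G6pc had -3.94 but Pck1 0.60 (adjusted p = 0.542).

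Peptide digestion showed differences in both directions. Mme, neprilysin, had 50.5, 25.7 and 342 CPM in ileum, against 315, 694 and 412 CPM in jejunum (-3.67 ± 0.59, adjusted p = 0.00521). Ace, angiotensin-converting enzyme, had 192, 125 and 886 CPM, against 849, 761 and 764 CPM in jejunum (-2.33 ± 0.32, adjusted p = 0.0139). Mep1a, the alpha subunit of meprin, was higher at 507, 319 and 131 CPM in ileum, against 120.4, 48.4 and 93.5 CPM in jejunum (2.24 ± 0.42, adjusted p = 0.0295). All 3 were called in all 4, as was Slc7a7, a basolateral exchanger of dibasic amino acids (-1.26 ± 0.19). Of the 22 genes 1 was called higher and 6 lower. The main peptide transporter gene Slc15a1 was not called, and its groups overlapped at 201, 69.3 and 256 CPM in ileum, against 262, 287 and 184 CPM in jejunum (adjusted p = 0.0871).

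Enzymes of xenobiotic metabolism formed the list with the most calls in 1 direction. Of 26 phase I genes 15 were called lower and 0 higher. Below jejunum without overlap lay 25 of them, as did 13.4% of all tested genes. The median log2 fold change was -2.51 with 5 libraries and -1.80 with 6. Cyp2b10, the P450 induced through the receptor CAR, had 9.68, 10.7 and 329 CPM in ileum, against 323, 374 and 757 CPM in jejunum (-5.58 ± 0.54, adjusted p = 0.00794). Cyp1a1, a target of the aryl hydrocarbon receptor, had 0.326 and 0.585 CPM in ileum crypt 1 and 2 and 11.9 CPM in ileum crypt 3, against 9.51, 48.1 and 22.3 CPM in jejunum (-5.91 ± 1.03, adjusted p = 0.0142). Ephx2, soluble epoxide hydrolase, had 42.3, 44.0 and 343 CPM, against 327, 540.0 and 646 CPM in jejunum (-3.57 ± 0.41, adjusted p = 0.0138). Each of these 3 was called in all 4. Cyp3a11 spread more within jejunum (551, 3914 and 1724 CPM, beside 89.2, 38.2 and 566 CPM in ileum) and was called in 3 of the 4. Conjugation genes were less uniform, with 5 of 18 called lower and 0 higher. The glucuronosyltransferase gene Ugt2a3 had 19.8, 15.9 and 176 CPM in ileum, against 164, 236 and 191 CPM in jejunum (-3.48 ± 0.31, adjusted p = 0.00521), while the efflux pump gene Abcg2 overlapped at 136, 114 and 132 CPM in ileum, against 133, 130.1 and 143 CPM in jejunum. Values of Cyp, Ces, Reg and defensin genes are uncertain, because near-identical copies can split or exchange reads.

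Lipid synthesis ran the other way at several steps. Sqle, squalene epoxidase, had 108, 128 and 56.8 CPM in ileum, against 53, 59.5 and 64.3 CPM in jejunum, and Cyp51, a demethylase of sterol synthesis, had 139, 138 and 71.2 CPM, against 68.5, 66.2 and 83.2 CPM. Both were called higher (0.98 ± 0.19 and 0.91 ± 0.18, adjusted p = 0.031 and 0.0316). Of 21 genes of cholesterol synthesis and LDL uptake 3 were called higher, among them these, and 0 lower. Of the 21, 15 had ileum crypt 1 and 2 above all jejunum libraries, as did 13.4% of all tested genes, and the list median was 0.53. Scd2, a stearoyl-CoA desaturase, had 293, 428 and 75.3 CPM in ileum, against 67.3, 68.3 and 29.9 CPM in jejunum (2.68 ± 0.45, adjusted p = 0.022), and the acyltransferase gene Mboat1 had 29.3, 39.8 and 3.45 CPM, against 3.41, 2.14 and 1.55 CPM (3.85 ± 0.42, adjusted p = 0.0094). Of 12 genes of fatty acid synthesis 4 were called higher and 1, the elongase gene Elovl6, lower. Of 20 genes that oxidise fatty acids or respond to PPAR, 3 were called lower and 0 higher. They included Pdk4, which restrains pyruvate use, at 1.09, 1.02 and 39.8 CPM in ileum, against 34.2, 14 and 36.7 CPM in jejunum (-4.73 ± 0.56, adjusted p = 0.00729).

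Among a list of positional transcription factors other than the Hox genes, a minority was called. Gata4 had 26.8 and 44.0 CPM in ileum crypt 1 and 2 and 226 CPM in ileum crypt 3, against 224, 80.9 and 317 CPM in jejunum (-2.55 ± 0.63, adjusted p = 0.0179; -1.07 with 6 libraries), and it was called in all 4. Its relative Gata5 overlapped between groups, at 72.1, 112 and 90.3 CPM in ileum, against 92.1, 40.4 and 89.8 CPM in jejunum, and so did Gata6 at 71.5 to 118 CPM in ileum, against 64.5 to 146 CPM in jejunum. Onecut2 had 0.326, 4.24 and 60.9 CPM in ileum, against 53.7, 128 and 114 CPM in jejunum (-5.52 ± 1.11, adjusted p = 0.0488), and Creb3l3, a regulator of apolipoprotein genes, was called lower too (-2.55 ± 0.47). Pdx1, a factor of the duodenum and pancreas, was at 21.6 and 12.9 CPM in jejunum crypt 2 and 3 and at most 0.556 CPM in the other 4 libraries, so jejunum crypt 1 did not share it. The intestinal factors Cdx2 (271 to 404 CPM in ileum, 122 to 360.0 CPM in jejunum) and Hnf4a (878 to 1173 CPM in ileum, 365 to 1136 CPM in jejunum) overlapped too. Of 24 genes of this list 1 was called higher (Foxa1) and 3 lower. Of 22 nuclear receptors 1 was called higher (Nr1h4) and 1 lower, Nr1i3 (-2.40 ± 0.43, adjusted p = 0.022). Nr1i3 encodes CAR, the receptor for which Cyp2b10 is a target. Over all tested genes 2% were called higher and 3.97% lower, so single calls in lists of this size are near those shares.

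Single genes of transport and metabolism also differed. Arg2, mitochondrial arginase, had 70.4, 78.2 and 558 CPM in ileum, against 581, 1043 and 838 CPM in jejunum (-3.49 ± 0.41, adjusted p = 0.0131). Slc9a3, the apical sodium-proton exchanger, had 6.09, 5.85 and 79.8 CPM, against 76.7, 38.9 and 58.4 CPM in jejunum (-3.28 ± 0.35, adjusted p = 0.00806). Guca2a, guanylin, was higher at 587, 793 and 208 CPM in ileum, against 209, 115 and 82.1 CPM in jejunum (2.33 ± 0.45, adjusted p = 0.0268). Among genes with the smallest p-values outside the lists, chosen after their values were seen, Suox, sulfite oxidase, had 184, 195 and 27.4 CPM in ileum, against 28.8, 18.6 and 18.8 CPM in jejunum (3.09 ± 0.25, adjusted p = 0.00631). Dfna5, a gasdermin gene, had 110.0, 90.8 and 27.6 CPM, against 19.5, 11.7 and 16.8 CPM (2.64 ± 0.25, adjusted p = 0.00743). In the other direction stood the lipid phosphatase gene Ppap2a, with 14.2, 12.9 and 80.9 CPM in ileum, against 84.3, 80.9 and 94.6 CPM in jejunum (-2.69 ± 0.20, adjusted p = 0.00521). For each of these 6 genes the levels of ileum crypt 1 and 2 did not overlap those of jejunum.

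Of the secretory markers, 12 of 16 Paneth genes and 9 of 18 goblet genes had higher levels in ileum crypt 1 and 2 than in any jejunum library, and the others overlapped. Over all tested genes 13.4% lay above jejunum without overlap. Lyz1, the lysozyme of Paneth cells, had 14690.0, 16910.0 and 6823 CPM in ileum, against 8515, 3474 and 2204 CPM in jejunum (1.73 ± 0.66, adjusted p = 0.148). Of the Paneth genes 1, the ligand gene Wnt3, was called, and the list median was 1.81. The list mean was 8.87, 9.17 and 7.75 log2 CPM in ileum, against 8.00, 5.84 and 5.73 log2 CPM in jejunum, so jejunum crypt 1 stood apart from the other 2. Of 18 goblet genes 10 were called higher and 0 lower, but 0 of these 10 were among the 137. The goblet list mean was 7.04, 7.74 and 6.78 log2 CPM in ileum, against 6.8, 5.91 and 6.12 log2 CPM in jejunum. Jejunum crypt 1 thus stood close to ileum crypt 3. The 10 called goblet genes included the lineage factors Atoh1 (42.3, 74.3 and 25.1 CPM in ileum, 27.1, 7.25 and 12.8 CPM in jejunum) and Spdef. The mucin gene Muc2 was also among these 10, and its groups overlapped at 817, 2745 and 1275 CPM in ileum, against 1220.0, 195 and 839.9 CPM in jejunum. Reg3g, a lectin that kills bacteria, had 1769, 2201 and 422 CPM, against 426, 273 and 124 CPM in jejunum (2.84 ± 0.56, adjusted p = 0.0326), and Reg3a had the opposite direction (-2.23 ± 0.30, adjusted p = 0.0138). In bulk RNA, fewer cells of a type and less RNA per cell cannot be told apart.

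Hormone genes differed in both directions. Pyy, peptide YY, had 6.53, 10.2 and 1.89 CPM in ileum, against 1.61, 0.823 and 0.640 CPM in jejunum (3.00 ± 0.56, adjusted p = 0.0231). Gip, the glucose-dependent insulinotropic peptide, had 10.4, 27.6 and 116 CPM, against 135, 107 and 205 CPM in jejunum (-2.98 ± 0.54, adjusted p = 0.0138), and Ghrl, ghrelin, had -2.51 ± 0.75 (adjusted p = 0.0387). Of 10 tested hormone genes 2 were called higher and 3 lower. General enteroendocrine genes showed no such split, with 0 of 22 called higher and 2 lower, where 2% and 3.97% of all tested genes were called so. Chga, chromogranin A, had 53.8, 172 and 141 CPM in ileum, against 152, 36.9 and 169.7 CPM in jejunum. One of those 2 was Ddc, which makes serotonin (-2.05 ± 0.28, adjusted p = 0.0157).

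Markers of blood and immune cells also moved with the comparison, and their part in the results above was not tested. All 5 red cell genes were called higher, among them Hbb-b1 at 160.2, 211 and 20.6 CPM in ileum, against 19.8, 42.6 and 36.0 CPM in jejunum (2.47 ± 0.39, adjusted p = 0.0178). Of 7 B and plasma cell genes 4 were called higher, among them Cd79a, part of the B cell receptor, at 10, 25 and 0.667 CPM in ileum, against 0.538, 0.823 and 0.320 CPM in jejunum (5.00 ± 0.65, adjusted p = 0.0138). With 6 libraries only 3 of the 7 passed the filter on low counts. The filter could pass the others through ileum crypt 1 and 2 alone, so their direction carries no weight of its own. Of 15 lymphocyte genes 9 were called lower with the Xist term, but their levels followed the 2 Xist-high libraries and overlapped between groups. Gzma, granzyme A, had 1216, 20.9 and 320.0 CPM in ileum, against 336, 5238 and 267 CPM in jejunum. Of the 137 genes called in all 4, 3 belong to the red cell list, 2 to the B and plasma cell list and 0 to the lymphocyte list. Genes of lung epithelium, noticed after their values were seen, set jejunum crypt 1 and 3 apart from the other 4 libraries. Scgb1a1, a secretory protein of airway cells, had no count in any ileum library, against 96.4, 0 and 71 CPM in jejunum crypt 1 to 3, and it was called lower (adjusted p = 0.00729). The surfactant gene Sftpc had 0.109, 0 and 0 CPM in ileum, against 44.7, 0.165 and 35.2 CPM in jejunum. Sftpb, Sftpa1 and Cyp2f2 had the same form and were called as well, and these genes also separated ileum crypt 3 from jejunum crypt 1. With 6 libraries these lung genes did not pass the filter on low counts. The filter could pass them through jejunum crypt 1 and 3 alone, so their direction carries no weight of its own. Their part in the other results was not tested. MHC class II genes were highest in the 2 Xist-high libraries (Cd74 at 1174, 163 and 89.8 CPM in ileum, against 92.8, 491 and 18.4 CPM in jejunum). Of these genes 0 of 8 were called in crypt, whereas 7 of 7 tested were called higher in ileum in the sorted cells.

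**Figure D3:**
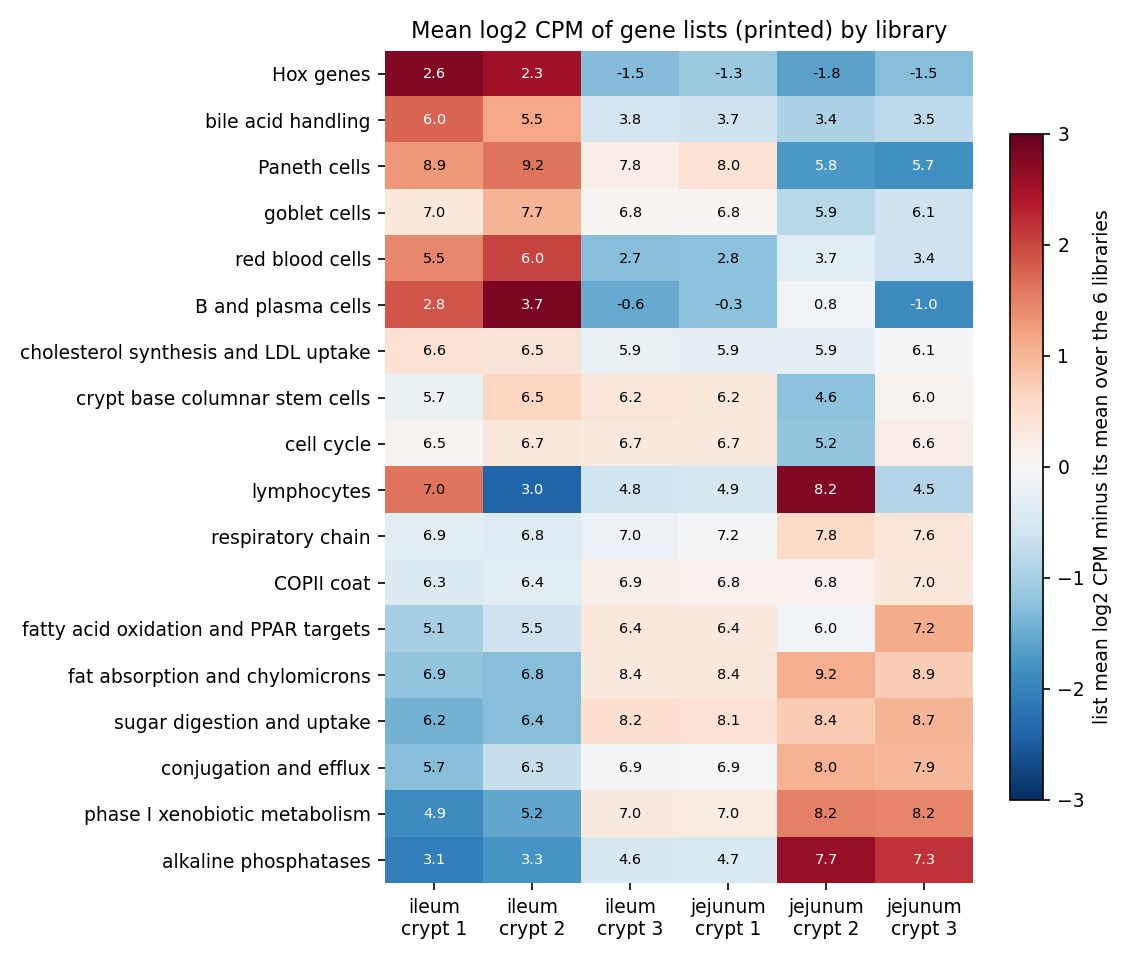
Mean log2 CPM (printed) of the tested genes of 18 lists in the 6 libraries; colour is the difference from the mean over the 6 libraries. Ileum crypt 1 and 2 differ from the other 4 in Hox, bile acid, fat, sugar and phase I genes; lymphocyte genes are at 6.99 in ileum crypt 1 and 8.16 in jejunum crypt 2, which is also lowest in the cell cycle list.

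Some stem cell genes were called with the Xist term, and 0 in all 4, while 0 cell cycle genes were called. Lgr5, a receptor of crypt base columnar stem cells, had 55.2, 77.8 and 38.1 CPM in ileum, against 34.5, 11.4 and 26.7 CPM in jejunum (1.45 ± 0.46, adjusted p = 0.0207, called with the Xist term but not in the other 3). Gkn3, a gastrokine gene, was the member called lower, at 0.762, 3.36 and 12.6 CPM in ileum, against 13.1, 19.6 and 23.6 CPM in jejunum (-3.23 ± 0.73, adjusted p = 0.0308). Of 22 stem cell genes 5 were called higher and 1 lower. The list mean was lowest in jejunum crypt 2, at 5.66, 6.51 and 6.21 log2 CPM in ileum and 6.17, 4.63 and 5.96 log2 CPM in jejunum. Mki67, a proliferation gene, had 277, 349.8 and 358 CPM in ileum, against 339, 75.1 and 292 CPM in jejunum. None of 24 cell cycle genes was called in either direction. Ribosomal protein genes had a median of 0.00 over 76 genes with 0 calls. Nuclear genes of the respiratory chain had a median of -0.71 over 84 genes, 54 of them below jejunum without overlap (13.4% of all tested genes), and 0 calls. Their list mean was 6.88, 6.82 and 7.05 log2 CPM in ileum, against 7.17, 7.80 and 7.58 log2 CPM in jejunum.

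The regional difference of the crypt libraries was set against that of the sorted cells, whose libraries are separate. Of the genes called higher in ileum in sorted cells, 387 of 431 tested were also higher in the 5 crypt libraries (89.8%, where 48% of all tested genes were higher). Of those called lower, 418 of 438 were lower in crypt (95.4%, beside 52%). With ileum crypt 3 included the shares were 85.9% and 91.6%. From the crypt side, 28 of the 36 genes called higher in all 4 were tested in sorted cells, and all 28 had the same direction there, 24 of them called. Of the 101 called lower, 98 were tested, 87 had the same direction and 54 were called. The setting with the spread of all libraries also used the sorted libraries, so these counts are not independent of them. Over the genes chosen by their calls in sorted cells, the median log2 fold change was 1.05 in the 5 crypt libraries and 1.25 in sorted cells for the higher set, and -1.12 and -1.11 for the lower set. Of the 805 genes called with the Xist term, 237 of 246 tested higher genes and 365 of 445 tested lower genes kept their direction in sorted cells. Of the lower genes, 3 were called in opposite directions, lower in ileum crypt and higher in ileum sorted cells: Ikzf2 and Prkch, whose levels overlapped in crypt, and Sulf2.

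**Figure D4:**
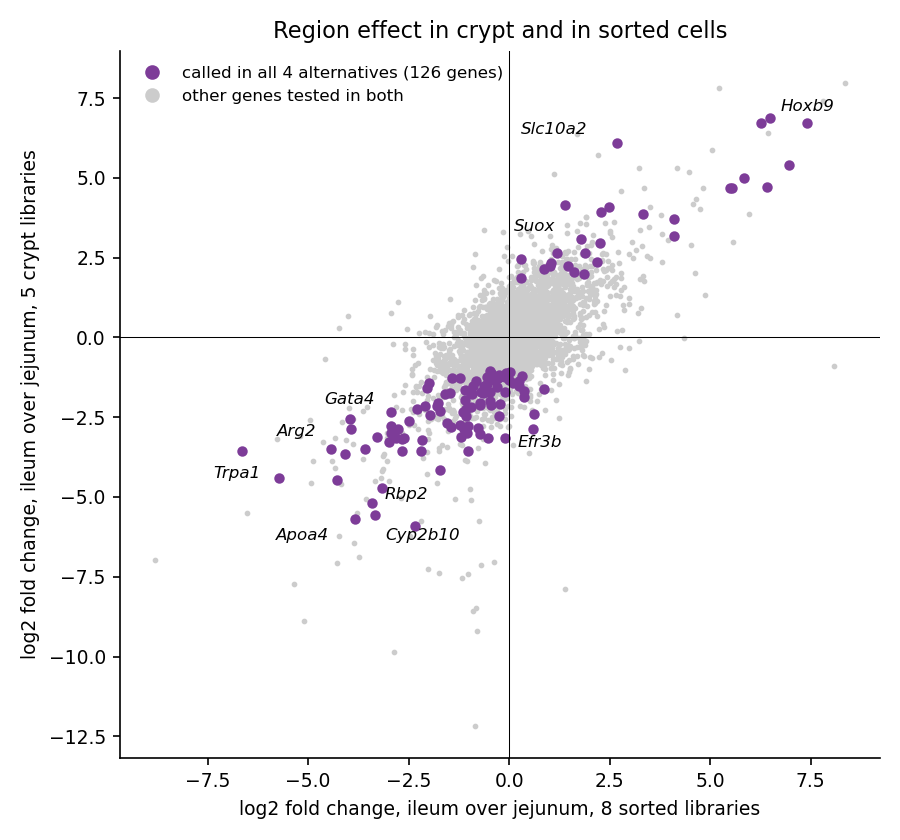
Log2 fold change of ileum over jejunum in 8 sorted libraries (x axis) and in 5 crypt libraries (y axis); grey points are genes tested in both, purple points the 126 of them called in all 4 crypt settings. Named points lie in the upper right (Hoxb9, Slc10a2, Suox) or lower left (Apoa4, Rbp2, Cyp2b10, Gata4), while Efr3b is at -3.16 in crypt and -0.10 in sorted cells.

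The difference between the regional effects of crypt and sorted cells was tested directly in 1 model of all libraries but ileum crypt 3. It called 5 of 14740 genes (0.0339%), of which 4 are described here. Efr3b, a plasma membrane scaffold of lipid kinase complexes, had 5.90 and 4.34 CPM in ileum crypt 1 and 2, against 37.4, 47.1 and 53.1 CPM in jejunum crypt, and 2.59 to 4.14 CPM in all sorted libraries. Its regional difference was -3.05 ± 0.33 log2 units lower in crypt than in sorted cells (edgeR, adjusted p = 0.0372). Lpgat1, an acyltransferase, was also further apart in crypt, with a difference of -1.52 ± 0.20 (edgeR, adjusted p = 0.0449). It had 109.3 and 118.2 CPM in ileum crypt 1 and 2, against 416, 430.7 and 508.2 CPM in jejunum crypt. LGR5 cells were close, at 96.46 and 92.73 CPM in ileum, against 98.33 and 107.5 CPM in jejunum. CD166 cells were split as well, at 66.15 and 72.14 CPM in ileum, against 130.1 and 112.7 CPM in jejunum. Unc5b, a netrin receptor, and Rdh9, a retinol dehydrogenase gene, had the reverse form, with levels that were close or overlapped between regions in crypt and far apart in sorted cells. Unc5b had 37.6 and 27.5 CPM in ileum crypt 1 and 2, against 26.6, 27.1 and 24.2 CPM in jejunum crypt. In sorted cells it had 20 to 32.6 CPM in ileum, against 3.78 to 6.58 CPM in jejunum, a difference of -2.07 ± 0.27 between populations (adjusted p = 0.0449). Rdh9 had 41.1 and 25.4 CPM in ileum crypt 1 and 2, while jejunum crypt held 22.2, 49.0 and 28.0 CPM, and in sorted cells 19.8 to 38.0 CPM in ileum, against 1.04 to 1.94 CPM in jejunum (-4.33 ± 0.57, adjusted p = 0.0449). With ileum crypt 3 included 2 genes were called (0.0136%), Unc5b and Rdh9, at an adjusted p of 0.0239 each.

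**Figure D5:**
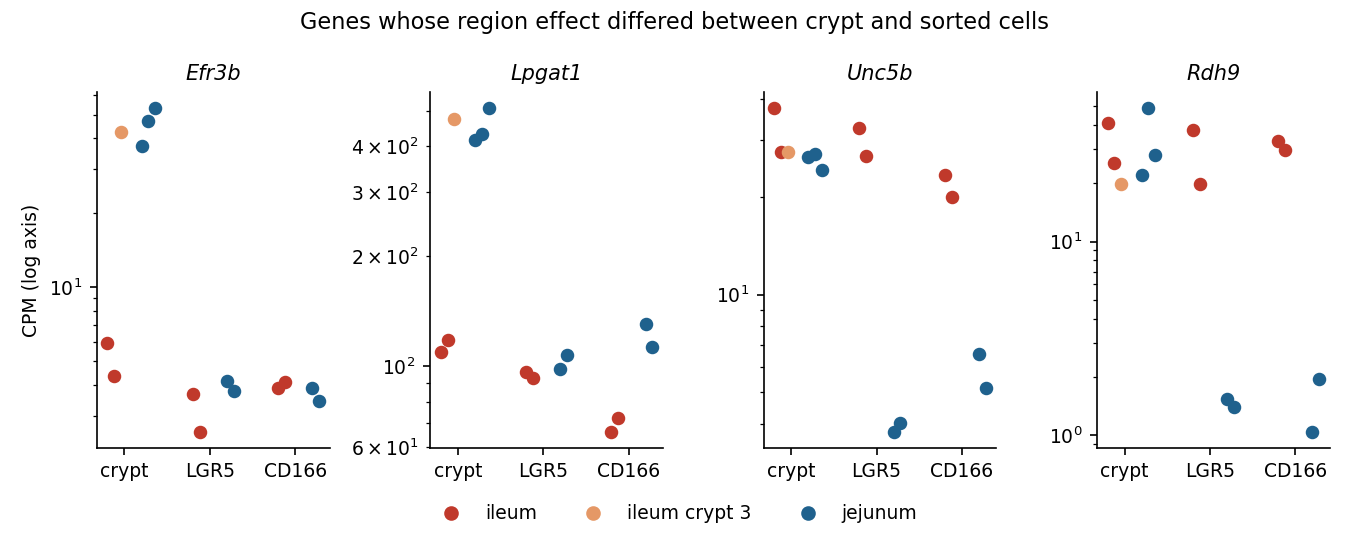
CPM (log axis) of 4 genes whose regional effect differed between crypt and sorted cells, in crypt, LGR5 and CD166 libraries; each point is 1 library, ileum left of jejunum. Efr3b and Lpgat1 are split by region in crypt, with ileum crypt 3 (orange) at the jejunum level. Lpgat1 is also split, less widely, in CD166 cells. Unc5b and Rdh9 are split in sorted cells, where jejunum Rdh9 is 1.04 to 1.94 CPM.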

How the data were processed

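Expected counts per gene (36401 genes, 33018 symbols, Ensembl identifiers) were deposited by the authors for each library without scaling; 50.6% of values above 0 are whole within 0.001. Per the labels' protocols, TruSeq libraries were read as single-end reads of 50 bases. The submitters' processing notes name mm9 and DESeq. For the aligner, counting program and annotation, nothing was stated in the sources at hand. Log2 values, which the authors deposited beside the counts, were not used.

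Expected counts were rounded, filtered with filterByExpr (minimum count 10, minimum total 15), scaled by TMM and fitted with edgeR 4.0.16 (R 4.3.3; glmQLFit, robust; glmQLFTest). Adjusted p-values are Benjamini-Hochberg values across every gene tested, with a threshold of 0.05. Standard errors were obtained from the log2 fold change and its F statistic. The script was tested on simulated data. Alternatives were DESeq2 size factors, no filter, 1 CPM in 3 libraries, DESeq2 1.42.0, limma-voom (limma 3.58.1), a replicate block, a term for libraries with Xist above 100 CPM, the spread of all libraries, and leaving out each library. After seeing the data, a term for how a file heading ends, the COPII list and the test of the difference between crypt and sorted cells were added. The meanings of "called" and "in all 4" were also set then.

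Genes were named as the largest differences, the most abundant list members and a panel of region and cell markers. Members and lists were chosen with earlier results of these data known. List genes beyond these were named after their values were seen. Promoters came from RefSeq (GRCm38.p6); no other coordinates are given, since no mm9 annotation was used here. Some genes are not reported here.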

Additional observations from a re-analysis of the deposited data

Results flagged for a closer look

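The difference of the regional effect between crypt and sorted cells was tested by an interaction term in 1 edgeR model of 13 libraries, and 5 genes passed, of which 4 are given here. The crypt effect minus the sorted effect was -3.05 ± 0.33 log2 units (SE) for Efr3b (adjusted p = 0.0372), -1.52 ± 0.20 for Lpgat1, -2.07 ± 0.27 for Unc5b and -4.33 ± 0.57 for Rdh9 (adjusted p = 0.0449 for each of these 3). For Efr3b and Lpgat1 the adjusted p was 0.928 and 0.934 with ileum crypt 3 included, while Unc5b and Rdh9 passed at 0.0239. With limma-voom the adjusted p of the 4 was 0.0591 to 0.078. By edgeR without jejunum crypt 3 it was 0.105 for each of the 4. What sets these genes apart was not tested.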

How the results depend on the processing

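Without ileum crypt 3, the count of called genes depended on the setting: 0 by edgeR, 65 with no filter on low counts, 657 by DESeq2, 805 with a term for the Xist-high libraries, 614 with the spread of all libraries and 0 to 172 when 1 further library was left out (172 without jejunum crypt 2). With 6 libraries it was 0, 22 by DESeq2 and 0 to 1 when 1 library was left out. In sorted cells it was 958, 566 with a replicate block and 517 to 1356 when 1 library was left out. The difference between crypt and sorted cells was called for 5 genes, 2 with ileum crypt 3, 12 with no filter, 173 by DESeq2 and 0 by limma-voom. Without jejunum crypt 1, 2 or 3 it was called for 44, 22 and 0 genes. Leaving out any other library left 1 library in its group, and those counts are not given. The causes were not tested. The replicate block gave 0 calls in both crypt fits. The deviations of crypt libraries with equal replicate numbers correlated at -0.408, -0.487 and 0.404, and those of ileum crypt 1 and jejunum crypt 2, both Xist-high, at 0.65. These values cannot settle whether the numbers pair the libraries. Each deviation was taken from the mean of its group, which in ileum included ileum crypt 3. Among the genes followed across the settings of each fit, 95 with 5 libraries and 86 with 6, no direction reversed. The genes followed did not include Chga, whose sign changed between the 5-library fit and the Xist term. The absence of reversals therefore does not cover every gene named here. Of 167 tested genes that the naming rule gave, 8 changed sign between the 6-library fit, the 5-library fit and the Xist term, among them Chga (0.04, -0.08 and 0.25), and 0 of the 8 were called.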
